A study of Homo sapiens with 2 samples.

Results

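The genes described here are 10 kinases and adaptors of focal adhesions, PTK2, PTK2B, PXN, VCL, TLN1, BCAR1, SRC, ZYX, TNS1 and ILK, read on 2 one-colour Agilent arrays. One array was hybridized with RNA of SBC-3 cells transfected with #1 siHOTAIR, an siRNA against the long noncoding RNA HOTAIR, and the other with RNA of SBC-3 cells transfected with siGFP, the control siRNA, directed against a jellyfish gene that human cells lack. SBC-3 is an established human small-cell lung cancer (SCLC) line that grows attached to the dish, and the methods name a lipid reagent for the transfection of the siRNAs against HOTAIR. The genes were taken as a fixed set of symbols, and every spot that is not a control and whose RefSeq accession belongs to one of them was used. All 10 genes were found, with 14 probes on 40 spots, among 19061 genes that could be named on the array. PTK2B and PXN are in the set because the study lists them as changed on these same arrays, so their values are a description. The whole set was chosen with earlier results of these data known, so its counts and ranks are a description too. With 1 array for each siRNA there was no replicate and no test, and the siRNA, the culture and the array cannot be told apart.

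Focal adhesions are the plaques where integrins, bound to the matrix outside the cell, are tied to actin filaments inside it. Talin, encoded by TLN1, binds the integrin tail and actin, and vinculin, encoded by VCL, is recruited to talin under tension and strengthens the link. Focal adhesion kinase (FAK), encoded by PTK2, is activated at these sites and together with the kinase SRC phosphorylates the scaffolds paxillin (PXN) and p130Cas (BCAR1), which pass the signal on to cell spreading and migration. Most classical SCLC lines grow as floating clusters, whereas SBC-3 adheres.

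The processed signal is the brightness of a spot after the scanner software subtracted the background. It was set, as log2, against the 75th percentile of its array, 650.3 for #1 siHOTAIR and 629.9 for siGFP, and a probe's value is the mean of its spots. Every log2 ratio below is #1 siHOTAIR minus siGFP on this scale. A probe is called detected on an array when the software marked at least 50% of its spots there as well above background. Of the 14 probes, 11 were detected on both arrays, 1 on the siGFP array only and 2 on neither, and none of the 40 spots was marked as an outlier. The error given with a ratio is the measurement SD, which comes from the spread of repeated spots of probes with 10 spots at the same level of signal and does not cover the difference between cultures. The scanner software's own error estimate is larger for spots of bright and middle signal and for the dimmest ones. Its SD on the log2 ratio of a single spot was 0.20 for VCL, 0.21 for PTK2 and 1.92 for the dimmest TNS1 probe. HOTAIR itself, read from 1 spot, had a signal of 108 after #1 siHOTAIR and 244 after siGFP, a log2 ratio of -1.22 with a measurement SD of 0.15. The labelled cell type was read from a list of 11 neuroendocrine markers of SCLC, of which 6 were detected on at least 1 array. Of these 6, NEUROD1, a neuronal transcription factor, read 213 after #1 siHOTAIR and 372 after siGFP, ENO2 read 620 and 770, and DLL3 read 679 and 570. CHGA, which encodes chromogranin A, was detected after #1 siHOTAIR only, at 72.2 against 10.2. With the siGFP signal raised to the lowest detected level of that array, its bound, CHGA was 2.44-fold higher. CHGB and NCAM1 were also detected after #1 siHOTAIR only, with spots that disagreed, from 0.36 to 3.37 and from 0.34 to 3.21 on the log2 scale, and their bounds give no fold change. Other NCAM1 probes, with signals of 7.41 against 5.65 and 9.17 against 7.01, were detected on neither array. INSM1, SYP, UCHL1, DDC and GRP were detected on neither array. Of 8 blood cell markers 4, and of 8 fibroblast markers 2, were detected on at least 1 array. These fibroblast markers were COL1A2, at 3758 after #1 siHOTAIR and 3741 after siGFP, and COL1A1, at 832 and 414. Of 6 regulators of SCLC variants, 4 were detected on both arrays. MYC read 8146 and 7528, YAP1 6522 and 6750, REST 261 and 271, and the detected MYCL probe 232 and 225.

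The member with the largest difference measured on both arrays was TNS1, which encodes tensin 1, an adaptor that binds integrin tails and actin and marks mature adhesions. TNS1 was higher after #1 siHOTAIR on both of its probes that were detected, by 3.30-fold and 2.12-fold. The probe with 2 spots read 146 and 149 after #1 siHOTAIR against 48.6 and 38.7 after siGFP. The values of the arrays did not overlap. The log2 ratio was 1.72 with a measurement SD of 0.23, and its spots gave 1.55 and 1.90. The second probe, with 1 spot, read 84.2 against 38.4, a log2 ratio of 1.09 with a measurement SD of 0.33. The third probe, with 1 spot, read 11.0 against 7.30 and was detected on neither array, so it gives no fold change. All 3 probes carry the same RefSeq accession.

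By log2 ratio, the TNS1 probes ranked 37 and 236 from the top of the 21428 probes detected on both arrays. Of 5038 compared probes with 2 spots, 68 had both spots higher after #1 siHOTAIR by 2-fold or more, 1.35%, and the brighter TNS1 probe was one of them. TNS1 was dim on both arrays. Among probes at the level of its brighter probe that were measured on both arrays, 2.76% were at least 2-fold higher. The size of the difference depended on the background correction. With normexp correction, which adds an offset of 50 to each signal, or with no correction, neither TNS1 probe reached 2-fold, and the lowest log2 ratios, with no correction, were 0.74 and 0.37, both still above 0. Large ratios were unevenly placed over the rows of the array. Rows 1 to 192, of 384, contained 49.9% of all spots and 84.3% of those with a signal higher after #1 siHOTAIR by 4-fold or more. The TNS1 spots in rows 132 and 139 lay among these rows. The spot in row 348 lay outside them, with a ratio of 1.90, and its partner inside them had 1.55. The part of the position was not tested.

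**Figure D1:**
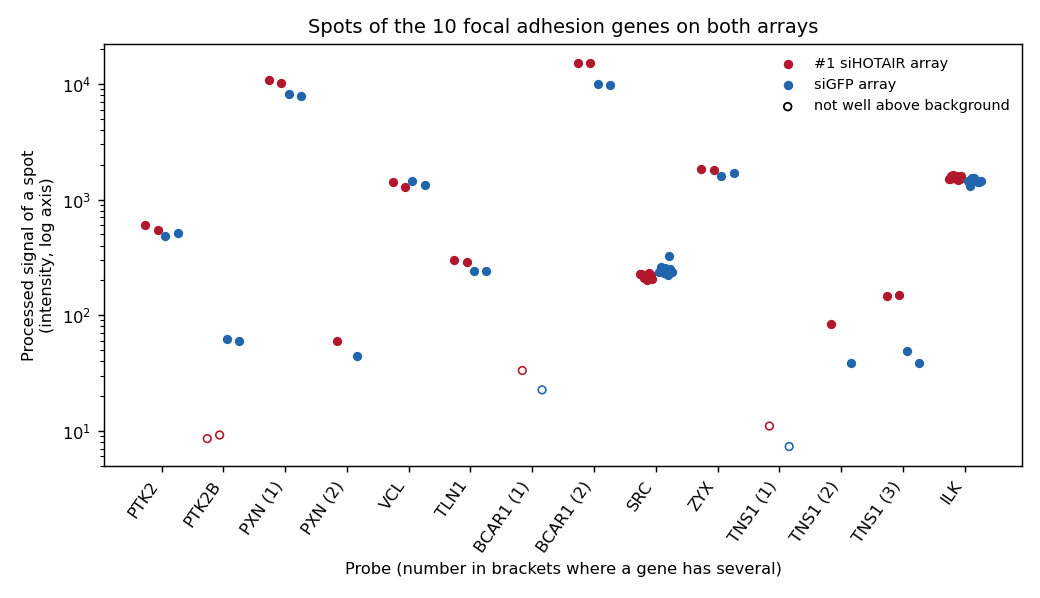
Processed signal of each spot, on a log axis, for the 14 probes of the 10 genes, with the #1 siHOTAIR array in red, the siGFP array in blue and spots not detected as open circles. The TNS1 probe numbered 3 reads 146 and 149 against 48.6 and 38.7, and the PTK2B spots are open in red and filled in blue. Heights of different probes cannot be compared as levels of genes.

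To show what lies upstream of TNS1, and of PXN for contrast, windows of 300 bases from 250 before to 50 after annotated starts were read from RefSeq, build GRCh38.p14. TNS1 has 5 such windows and PXN has 2, and the arrays do not show which start was used. The outermost TNS1 window is chr2:218010226-218010525 on the minus strand, and an inner one, chr2:217944021-217944320 on the minus strand, holds matches to 2 motifs. The outer PXN window is chr12:120265681-120265980 and the inner one chr12:120250114-120250413, both on the minus strand. Capitals mark every match, on either strand, to the SP1 motif GGGCGG, the TEAD motif GGAATG, the AP-1 motif TGANTCA or the CArG box, which SRF binds, and neighbouring matches can overlap.
TNS1 outer start: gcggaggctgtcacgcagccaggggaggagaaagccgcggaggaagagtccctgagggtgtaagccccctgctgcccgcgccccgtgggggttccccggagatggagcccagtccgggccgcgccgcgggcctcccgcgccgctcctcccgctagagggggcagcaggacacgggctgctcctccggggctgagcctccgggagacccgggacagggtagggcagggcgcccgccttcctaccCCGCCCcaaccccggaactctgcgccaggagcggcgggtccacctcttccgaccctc
TNS1 inner start: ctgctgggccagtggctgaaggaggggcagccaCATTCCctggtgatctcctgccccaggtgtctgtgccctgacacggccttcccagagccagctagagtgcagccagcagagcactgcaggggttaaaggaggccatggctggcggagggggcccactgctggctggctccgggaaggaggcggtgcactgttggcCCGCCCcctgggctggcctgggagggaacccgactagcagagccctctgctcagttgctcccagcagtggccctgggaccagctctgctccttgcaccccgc
PXN outer start: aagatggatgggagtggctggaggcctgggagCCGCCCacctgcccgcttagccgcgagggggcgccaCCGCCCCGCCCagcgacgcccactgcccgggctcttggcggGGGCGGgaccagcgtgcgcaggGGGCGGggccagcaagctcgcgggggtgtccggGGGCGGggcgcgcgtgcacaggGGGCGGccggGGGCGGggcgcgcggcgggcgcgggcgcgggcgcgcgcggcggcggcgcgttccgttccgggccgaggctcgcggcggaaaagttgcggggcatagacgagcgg
PXN inner start: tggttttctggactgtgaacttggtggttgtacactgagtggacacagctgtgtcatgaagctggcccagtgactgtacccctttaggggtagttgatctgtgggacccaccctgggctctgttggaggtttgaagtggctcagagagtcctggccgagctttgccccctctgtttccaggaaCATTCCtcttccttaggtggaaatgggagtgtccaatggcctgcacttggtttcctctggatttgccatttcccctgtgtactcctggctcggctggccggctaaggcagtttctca

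The outer PXN window held 8 SP1 matches and 81.3% G and C, whereas the inner one held no SP1 match, 1 TEAD match and 54.3% G and C. The inner TNS1 window held 1 SP1 and 1 TEAD match. Windows were used for 7 of the 10 genes, 16 in all, with none for PTK2, PTK2B and SRC. SRC had no window in the set that was read. Separately, member windows on chromosome 8 were left out by rule, and this rule was not applied to the set of all windows. The SP1 motif was in 12 of the 16 windows and in 45.0% of all 35116 windows. The median share of G and C was 67.5% in the members' windows and 58.7% in all windows, and the SP1 motif is made of these bases alone. The TEAD motif was in 4 of the 16 windows, against 14.0% of all windows, and the AP-1 motif in 1, against 7.71%. No member window held a CArG box, which was in 1.29% of all windows. A match describes the letters of a window and is not a binding site.

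Of the 3 tyrosine kinases, the FAK and SRC probes had folds of 1.11 higher and 1.19 lower after #1 siHOTAIR, and PTK2B was also lower, at a signal near the limit of detection. PTK2, by a probe with 2 spots, read 601 and 545 after #1 siHOTAIR against 481 and 516 after siGFP. The arrays did not overlap, but the gap between them, from 516 to 545, was smaller than the spread of the spots within either array. The log2 ratio was 0.16 with a measurement SD of 0.08, and the spots gave 0.28 and 0.04. The software's error estimate for each of these spots, 0.21, was above the ratio of the probe.

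PTK2B encodes PYK2, the second kinase of the FAK family, which responds to calcium and is known mostly from neurons and blood cells. Its probe had 2 spots, in rows 14 and 20. They read 8.55 and 9.19 after #1 siHOTAIR, not detected, against 62.7 and 60.2 after siGFP, where both were detected. Before any background correction, the median pixel of these spots was 102.5 and 109.5 against 147.5 and 155.5, over a local background between 62 and 70. Both spots were lower after #1 siHOTAIR, and the arrays did not overlap. With the dim signals raised to the lowest detected level of that array, their bound, the probe was 1.70-fold lower after #1 siHOTAIR. Its log2 ratio with the dim signals at their own level was -2.84. With normexp correction the log2 ratio was -0.62 and with no background correction -0.56, both smaller in size than that bound. The scanner software's error estimate for each of these spots was an SD of 1.46 on the log2 ratio. Of the 5038 compared probes with 2 spots, 80 were at least 2-fold lower on both spots at that level, 1.59%, a background from which nothing is read for PTK2B, since the study listed it from this contrast. Rows 1 to 192 contained 67.5% of the spots lower after #1 siHOTAIR by 4-fold or more, and both PTK2B spots lay there, so the part of the position was not tested.

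SRC, the founding member of its kinase family and the partner of FAK, was read from 10 spots. Their lowest, median and highest signals were 203, 221 and 232 after #1 siHOTAIR and 221, 245 and 327 after siGFP. The ranges overlapped, yet each of the 10 spots was lower after #1 siHOTAIR than its own position on the siGFP array. The log2 ratio was -0.25 with a measurement SD of 0.05, and single spots gave between -0.54 and -0.10. ILK, integrin-linked kinase, which acts chiefly as a scaffold between integrins and parvins, was also read from 10 spots. They had a lowest, median and highest signal of 1486, 1560 and 1646 against 1318, 1443 and 1530. These ranges overlapped, 9 of the 10 spots were higher after #1 siHOTAIR, and the log2 ratio was 0.06 with a measurement SD of 0.03. The middle 50% of all probes measured on both arrays at the level of ILK had ratios between -0.15 and 0.21, which took in ILK, and at the level of SRC the middle 50% ran from -0.22 to 0.26, just above the value of SRC.

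Both scaffolds that FAK and SRC phosphorylate were higher after #1 siHOTAIR, by less than 2-fold. BCAR1, which encodes p130Cas, a scaffold that recruits the adaptor CRK, read 15120 and 15050 against 9915 and 9811 on its bright probe. The spots of an array lay close together and the arrays were far apart. The log2 ratio was 0.57, or 1.48-fold, with a measurement SD of 0.05, and its spots gave 0.56 and 0.57. At this level of signal the middle 50% of all probes ran from -0.17 to 0.10, and BCAR1 ranked 1524 of the 21428 probes. Its other probe, with 1 spot and signals of 33.2 and 22.6, was detected on neither array.

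PXN encodes paxillin, the scaffold that binds FAK and vinculin. Its brighter probe read 10826 and 10157 after #1 siHOTAIR against 8164 and 7857 after siGFP. The arrays did not overlap, and the log2 ratio was 0.34, or 1.27-fold, with a measurement SD of 0.05. A second probe, named for another PXN transcript, had 1 spot with signals of 59.6 and 44.7 and a log2 ratio of 0.37, or 1.29-fold, with a measurement SD of 0.33. The ratios of the probes were nearly the same, but that of the second was little above its measurement SD, so its likeness to the first carries little weight. Neither probe reached 2-fold under any of the 9 other ways of treating the signal. The study's methods name a change of 2-fold or more as the threshold, which neither of these PXN probes reached here. Only 58.5% of the probes on the array could be named by RefSeq accession. Whether the study's listing of PXN rests on another probe or scaling was not tested. The single-spot error estimate of the software, 0.20, was below the ratio of both BCAR1 and the brighter PXN probe.

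The genes that join integrins to actin, other than TNS1, had folds of 1.18 for TLN1, 1.05 for VCL and 1.07 for ZYX. TLN1 read 299 and 290 against 242 and 241, with no overlap of the arrays, and its log2 ratio was 0.24 with a measurement SD of 0.11. VCL read 1422 and 1279 against 1434 and 1323, and the spots of the arrays overlapped. Its log2 ratio was -0.08 with a measurement SD of 0.06, and the direction turned to 0.06 with scaling to the spike-in RNA, which moved the median of all compared probes up by 0.14. ZYX encodes zyxin, which moves onto stressed actin fibres and recruits VASP. It read 1830 and 1808 against 1593 and 1709, a log2 ratio of 0.09 with a measurement SD of 0.06.

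**Figure D2:**
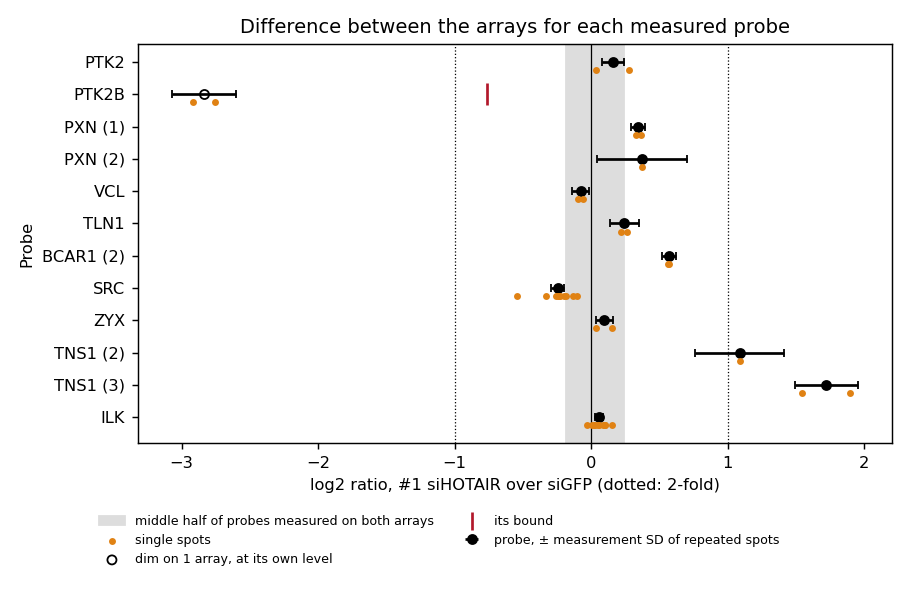
log2 ratio of #1 siHOTAIR over siGFP for the 12 probes detected on at least 1 array, with bars for the measurement SD, single spots in orange and the middle 50% of all probes measured on both arrays, -0.18 to 0.24, shaded. TNS1, at 1.72 and 1.09, lies above the dotted line at 2-fold, and PTK2B is drawn open at its own level of -2.84 with its bound marked in red.

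Counted together, 3 of the 12 compared probes differed at least 2-fold with dim signals at their own level, 2 higher (TNS1) and 1 lower (PTK2B). Of all 24117 compared probes, 7.40% did. That share takes in 2689 probes detected on 1 array only, whereas 11 of the 12 member probes were detected on both. With the dim PTK2B signals at their bound the member count was 2. Without PTK2B and PXN it was 2 as well, both of them probes of TNS1. All members, TNS1 included, were chosen with earlier results of these data known, so nothing beyond a description is read from these counts. By gene, taking the probe with the highest mean signal, 2 of the 10 differed at least 2-fold, against 6.15% of 13014 genes. The median log2 ratio of the 10 genes was 0.13, and that of all genes was 0.02, with the middle 50% between -0.22 and 0.25. Of the 10 genes 7 had ratios above 0, as did 52.3% of all genes. Without PTK2B and PXN the median was 0.13.

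**Figure D3:**
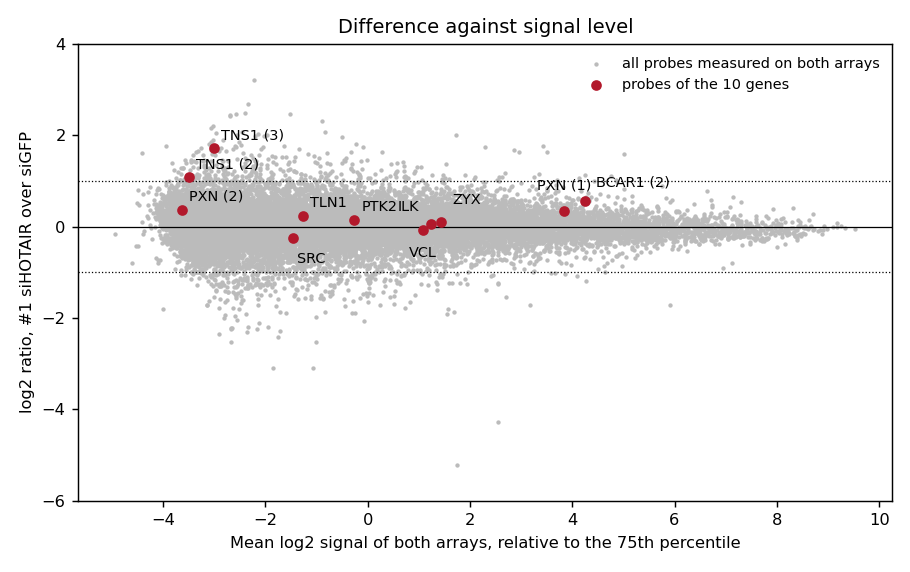
log2 ratio of #1 siHOTAIR over siGFP against the mean log2 signal for the 21428 probes detected on both arrays (grey) and the 11 such probes of the 10 genes (red), with dotted lines at 2-fold. The spread of the grey points is wider at low signal, where the TNS1 probes lie, and BCAR1 and the brighter PXN probe lie among bright probes of narrow spread.

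Other genes of focal adhesions were read from 4 lists of 77 genes in all. Every one of the 77 had a named probe, and 63 were detected on at least 1 array. By the probe with the highest signal 1 of the 63 (1.59%) differed at least 2-fold, beside 6.15% of all genes. The share of all genes also counts genes detected on 1 array only, at their own level. Of the compared list genes, those detected on both arrays were 12 of 12, 20 of 21, 8 of 10 and 20 of 20, in the order below. The shares are therefore not of like sets. Among probes detected on both arrays, no band of signal level had more than 2.76% at least 2-fold higher or 3.21% lower. The 63 genes had a median log2 ratio of 0.03, and 32 of them were above 0.

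The gene that differed was LIMS2, in the list of integrin tail and actin bridge partners. It encodes PINCH2, a LIM-domain protein that binds ILK. LIMS2 read 199 after #1 siHOTAIR against 572 after siGFP on 1 spot, in row 163, a log2 ratio of -1.57 with a measurement SD of 0.15, or 2.96-fold lower. A second LIMS2 probe, with signals of 17.2 and 14.9, was detected on neither array, so 1 spot carries this value. Of the 17 genes of the list 12 were compared, 11 differed by less than 2-fold, and the median was 0.05. The largest increase was that of FERMT2, which encodes kindlin-2, the partner of talin on the integrin tail. Its brighter probe read 2463 against 1482, a log2 ratio of 0.69 with a measurement SD of 0.08, and a dimmer probe gave 0.29 with an SD of 0.15. FERMT3, the kindlin of blood cells, and PARVG, the parvin of blood cells, were detected on neither array. FERMT3 read 9.03 against 22.8 and PARVG 8.94 against 17.1, which give no fold change. Both genes are also listed by the study as changed on these arrays.

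Among 23 signalling partners of FAK, paxillin and p130Cas, 21 were compared and none differed at least 2-fold, with a median of -0.02. ARHGAP26, also called GRAF, a GTPase-activating protein that binds FAK, had the largest increase, with mean signals of 210 and 115 and a log2 ratio of 0.82 with a measurement SD of 0.11. Its spots gave 0.71 and 0.93. BCAR3, which binds p130Cas, had the largest decrease, with signals of 475 and 611 and a log2 ratio of -0.41 with an SD of 0.08. TGFB1I1, which encodes the paxillin relative Hic-5, read 1534 against 1833, a ratio of -0.30, opposite in direction to PXN. Of the 17 Src family kinases and regulators, 10 were compared and none differed at least 2-fold, with a median of 0.05. FYN, the sister kinase of SRC, was read from 10 spots with mean signals of 869 and 1079. Its log2 ratio was -0.36 with a measurement SD of 0.03, and all its spots were lower after #1 siHOTAIR, between -0.41 and -0.28. LYN, a Src family kinase, was detected after #1 siHOTAIR only, with mean signals of 62.0 and 32.0 over 8 spots. With the siGFP signal at its own level, LYN was 1.88-fold higher, and its spots gave between 0.80 and 1.39 on the log2 scale. That siGFP signal was not detected, so this fold is not a lower bound. CSK, the kinase that holds Src family members inactive, read 576 against 439, a log2 ratio of 0.35 with an SD of 0.08.

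All 20 genes of the zyxin, tensin and VASP group were compared, with a median of -0.04, and none differed at least 2-fold on its brightest probe. VASP, which zyxin recruits to promote actin filament growth, was read from 10 spots with mean signals of 416 and 218. Its log2 ratio was 0.88, or 1.85-fold, with a measurement SD of 0.05, and single spots ranged from 0.67 to 1.00. LPP, a relative of zyxin, had mean signals of 126 and 221 and a log2 ratio of -0.86 with an SD of 0.11. The other tensins had ratios nearer to 0 than TNS1. TNS2 read 251 against 281 with a ratio of -0.21, TNS3 read 326 against 306 with a ratio of 0.05, and TNS4 read 74.0 against 57.9 with a ratio of 0.31 and an SD of 0.23. SORBS2, an adaptor that binds vinculin, gave -0.52 on a probe with 10 spots. A dimmer probe with 1 spot, detected on the siGFP array only, was 1.90-fold lower with the dim signal at its bound.

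**Figure D4:**
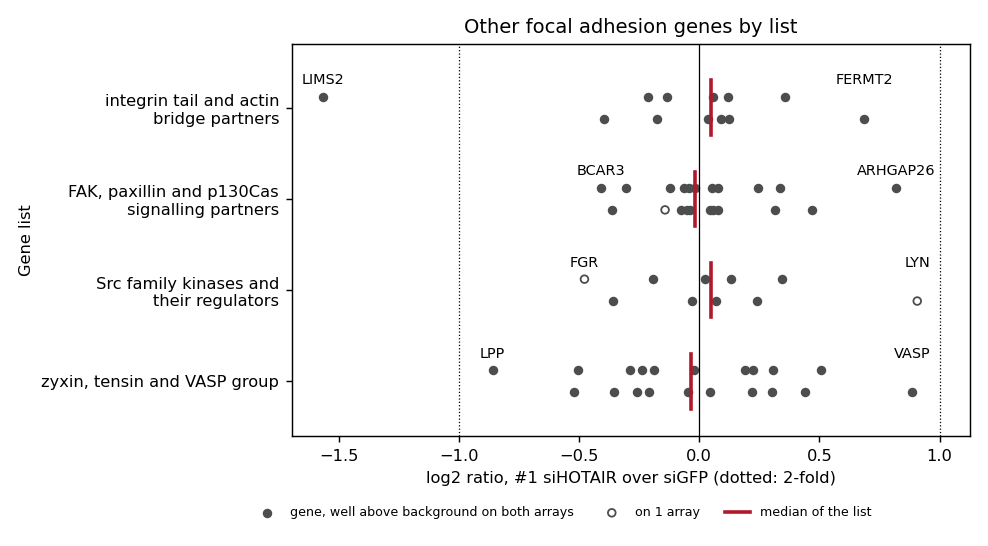
log2 ratio of #1 siHOTAIR over siGFP for the 63 compared genes of the 4 lists, 1 point a gene by the probe with the highest mean signal, with the median of each list as a red line and open circles for genes detected on 1 array. LIMS2, at -1.57, is the point beyond the dotted lines at 2-fold, and VASP lies at 0.88.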

How the data were processed

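The authors labelled RNA with Cy3, hybridized 1 array per siRNA on SurePrint G3 Human GE 8x60K slides, and extracted spots with Agilent Feature Extraction 10.10.1.1. Per the file headers, both arrays came from 1 slide. The split of the rows of the array was chosen after seeing the data. The deposited processed signal is an intensity, corrected for background and for trends within the array and not normalized between arrays. The deposited series value table equals the background-subtracted intensity (largest difference 0). Controls and outlier spots were left out, log2 signals were set against the 75th percentile, and accessions were matched without versions to a RefSeq table of GRCh38.p14, used for names and promoter windows. A probe dim on 1 array was bounded by the lowest spot well above background there, 37.3 for #1 siHOTAIR and 28.6 for siGFP. A dim signal above that level, as for LYN, was kept at its own value. Since undetected signals can lie above that level, the bound is a convention and not a firm limit. The members and lists were chosen with earlier results of these data known. All members are named, with every gene of the pathway lists of which a probe differed at least 2-fold and, of each such list, the largest rise and fall among genes detected on both arrays. FERMT3, PARVG, TGFB1I1, LYN, TNS2, TNS3, TNS4 and the markers were named after their values were seen. Alternatives were run for scaling, background correction (normexp of limma 3.58.1 on the median spot signal, in place of the mean), filter, threshold and choice of probe. With 1 array a group, precision is limited. Proteins' sequences were not used here, and a further gene list and 1 marker are not reported here.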

Additional observations from a re-analysis of the deposited data

How the results depend on the processing

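No paired analysis was possible because each siRNA has 1 array, and leaving out an array leaves no comparison. Under 9 other treatments of the signal, 108 ratios of member probes gave 89 within the measurement SD of the main value and 19 beyond it, and no probe at or beyond 2-fold changed sign. The count of member probes differing at least 2-fold was 0 with normexp and 0 with no background correction, instead of 3. Both leave an offset or the background in each signal, and which treatment is nearer to the true ratios was not tested. The count was 2 without PTK2B and PXN (an alternative chosen after seeing the data). With spike-in scaling, the members' median was 0.27, and the lists' medians were 0.19 (integrin tail and actin bridge partners), 0.12 (FAK, paxillin and p130Cas partners), 0.19 (Src family) and 0.10 (zyxin, tensin and VASP group), beside a shift of all compared probes of 0.14. With no filter, the Src family median was 0.13. The count of genes differing at least 2-fold in the integrin tail list was 2 with no filter, 2 at 1.5-fold and 0 at 3-fold. For the FAK partners it was 1 with no filter and 1 at 1.5-fold. For the Src family it was 1 with spike-in scaling, 1 with outlier spots kept, 1 with no filter and 1 at 1.5-fold. For the zyxin group it was 1 with spike-in scaling and 2 at 1.5-fold. The other 112 of 131 counts and medians stayed within 1.5 times the main count or within the median measurement SD of the list's probes. Signal over background limits PTK2B, TNS1 and the second PXN probe most.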
